A study of Arabidopsis thaliana with 18 samples.

Results

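The plant mitochondrion keeps a small genome of its own. Described here are the 23 of 22746 tested probe sets that name 1 gene and met a rule for genes of that genome. The rule that chose them reads gene symbols (nad, cox, cob, ccb, ccm, atp, orf, matR and mttB names) and loci that start with ATMG. It holds no symbols of ribosomal protein genes. The 23 probe sets stand for 16 genes. All 23 were matched by symbol or synonym to genes of the mitochondrial chromosome in the RefSeq table of the TAIR10.1 assembly. Of the 32 mitochondrial protein-coding genes in that table, the other 16 had no probe set among the 23. Apart from shared probe sets described below, whether any outside the rule name them was not examined. The array values name no genome build and no sequences were used here, so neither coordinates nor sequences are given.

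The study hybridised root RNA of Arabidopsis thaliana to 18 Affymetrix ATH1 arrays of 1 colour, 3 biological replicates for each of 6 groups. The groups were wild-type Col-0, a line in the Col-0 strain that overexpresses CsUBC13 (CsUBC13-OE), and a mutant in the Col-0 strain labelled ubc13A and ubc13-/-, each on ES medium with Fe and on ES medium without FeEDTA. All were 10-day-old seedlings at transfer and were harvested 3 days later. UBC13 is a ubiquitin-conjugating enzyme. The promoter of the transgene and the number of independent lines were not given in the labels.

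Mitochondrial genes of plants encode core parts of the respiratory chain, many of them membrane-embedded, while most mitochondrial proteins are encoded in the nucleus and imported. Complex I passes electrons from NADH through a flavin and a chain of iron-sulfur clusters, and complex IV reduces oxygen at haem and copper centres. Cytochrome c carries a covalently attached haem, which in plant mitochondria is fitted by a maturation (Ccm) machinery partly encoded in the organelle. The respiratory chain is thus a large user of iron.

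The 23 probe sets covered 15 for complex I, from 8 genes (nad1 with 7 probe sets, nad5 with 2, and nad2, nad4, nad4L, nad6, nad7 and nad9 with 1 each). Complex IV was represented by cox1 and cox2, the metal-binding subunits of its core. Cytochrome c maturation had 4 probe sets: ccb206 (ccmB), ccb382 (ccmFN1), ccb203 (ccmFN2) and ccb452 (ccmFC). The remaining 2 were matR, which encodes a maturase for the splicing of group II introns, and orfX (mttB), which encodes a TatC-like protein of membrane translocation. A further 6 probe sets were annotated jointly to a mitochondrial gene and to a gene of nuclear chromosome 2, which carries a copy of the mitochondrial genome. They named atp1, atp9, cob, cox3 and nad1, were not counted as members, and none was called in any comparison. How far the nuclear copy adds to the signals of the 23 was not tested.

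Signals are linear intensities as deposited, with array medians between 189.7 and 210.95. Of the 23 probe sets, 5 (ccb382, nad4, cox1, cox2 and ccb452) had a mean signal above the highest array median. Another 5 (ccb203, nad7, nad2, and 257327_at and 257329_at of nad1) had a mean below 47.2, the highest 25th percentile of any array, and 14 of the 23 were never below the 25th percentile of their own array. The labels do not name the primer used for cDNA synthesis, and plant mitochondrial transcripts mostly lack the stable poly(A) tails of nuclear messengers, so the signals may not follow transcript abundance. In RNA from whole roots, fewer mitochondria per cell and less RNA per mitochondrion cannot be told apart, nor can fewer cells of a type and less RNA per cell.

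The root marker PYK10, a beta-glucosidase of roots, had signals from 12890.6 to 22635.8 on all 18 arrays. For the marker and nuclear gene lists, measured means that a probe set naming only that gene was matched by locus. Whether other probe sets cover the remaining loci was not examined. The 3 measured root markers of 10 summed to between 13681.1 and 23593.9. The 4 measured green tissue markers of 7 (LHCB4.1, RCA, PSAE-1 and PRK) were also present, with none at 0, and summed to 2231.9 to 4077.6 with Fe and 1857.3 to 2746.1 without Fe. The probe set annotated to both Arabidopsis UBC13 genes, UBC35 and UBC36, cannot separate them and so does not check the genotype labels. Its signals were 3241.9 to 4159.0 in Col-0, 3895.8 to 4731.9 in CsUBC13-OE and 2477.4 to 3428.2 in ubc13A (6 arrays each), with Col-0 overlapping both other lines. The 25S rRNA control probe set of the array lay between 277.7 and 1019.4 on the 6 ubc13A arrays and between 2104.1 and 12626.1 on the other 12, with no overlap. The GEO records of the ubc13A samples form a run apart from the other 12, and whether they were processed at another time is not given in the labels.

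Removing Fe left most of the 23 mitochondrial genome probe sets without a detectable change. The log2 difference of the group means of log2(signal + 16), without Fe minus with Fe, was tested with limma and adjusted by the Benjamini-Hochberg method over all 22746 probe sets, with a call at an adjusted p under 0.05. In Col-0, 0 of the 23 were called, against 4.26% of all probe sets, with 1 at an unadjusted p under 0.05 (15.4% of all) and a smallest adjusted p of 0.323 in limma's test. CsUBC13-OE gave 0 calls as well, with a background of 4.33%, 3 at an unadjusted p under 0.05 (14.9% of all) and a smallest adjusted p of 0.239. In ubc13A there were 0 calls against 3.72%, 3 at an unadjusted p under 0.05 (16.7% of all) and a smallest adjusted p of 0.213. The median log2 difference of the 23 was -0.11 in Col-0, -0.16 in CsUBC13-OE and -0.13 in ubc13A, against -0.04 over all probe sets in each genotype. In Col-0 and CsUBC13-OE the sign of these medians rests on single arrays. Leaving out 1 array in turn gave -0.26 to 0.04 in Col-0, -0.38 to 0.07 in CsUBC13-OE and -0.12 to -0.07 in ubc13A. The sign turned without replicate 1 grown with Fe, in Col-0 and in CsUBC13-OE alike. The members were noisier than most probe sets on the array: the median SE of a difference between 2 groups was 0.26 for them and 0.18 over all.

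Averaged over the 3 genotypes, 1 of the 23 was called lower without Fe and none higher, where 14.2% of all probe sets were called in either direction and 8.46% lower. At an unadjusted p under 0.05 there were 2 members, and 26.6% of all probe sets. The median log2 difference of the 23 was -0.14, against -0.05 over all probe sets, and ran from -0.21 to -0.02 when 1 array was left out, the latter without CsUBC13-OE replicate 1 grown with Fe. Of the 23, 16 lay below 0, a direction shared by 59.6% of all probe sets.

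In Col-0, same-numbered arrays with and without Fe deviated together weakly. The correlations for replicates 1 to 3 were 0.261, 0.112 and 0.153 over all probe sets, and 0.341, 0.0318 and 0.428 over the members. The supplies were therefore also set side by side within pairs. Over the 3 Col-0 pairs, 1 of the 23 members (4.35%) had a higher signal without Fe every time, against 17.6% of all probe sets. Another 9 (39.1%) had a lower signal without Fe every time, against 25.4% of all probe sets. They were ccb203, ccb452, cox1, nad4, nad4L, nad6, nad5 257337_at, and 257324_at and 257325_at of nad1. The members share these 3 pairs of arrays, so they are not separate observations. Both counts were made after the values were seen, and a fit with the replicate number as a block called 0 members in Col-0.

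The probe set called was that of ccb203, which encodes CcmFN2, a part of the haem ligation machinery for cytochrome c. In Col-0 its signals were 41.2, 37.5 and 45.7 with Fe and 24.7, 28.2 and 41.3 without Fe. CsUBC13-OE had 32.9, 59.5 and 25.7 with Fe and 20.3, 20.7 and 19.3 without. In ubc13A the values were 34.6, 43.0 and 69.9 with Fe and 18.3, 37.7 and 26.4 without. Every CsUBC13-OE array without Fe was below every one with Fe, while in Col-0 and ubc13A the ranges overlapped. The averaged log2 difference was -0.48 (SE 0.13, limma adjusted p = 0.0251). By genotype it was -0.29 in Col-0, -0.57 in CsUBC13-OE and -0.57 in ubc13A, none of them called. The probe set is dim, below the 25th percentile of its own array on 10 of 18 arrays, and the call rests on narrow margins. With a variance trend and robust moderation its adjusted p was 0.0503. Without Col-0 replicate 1 grown without Fe it was 0.0513, and without ubc13A replicate 1 grown without Fe it was 0.0538.

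None of the other 3 cytochrome c maturation genes was called in the averaged Fe response. The log2 difference was -0.17 for ccb452 (CcmFC), -0.02 for ccb206 (CcmB) and 0.02 for ccb382 (CcmFN1). In Arabidopsis the CcmFN protein is divided between ccb203 and ccb382, and the 95% interval of ccb382 ran from -0.27 to 0.31. The difference between these genes was not tested.

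**Figure D1:**
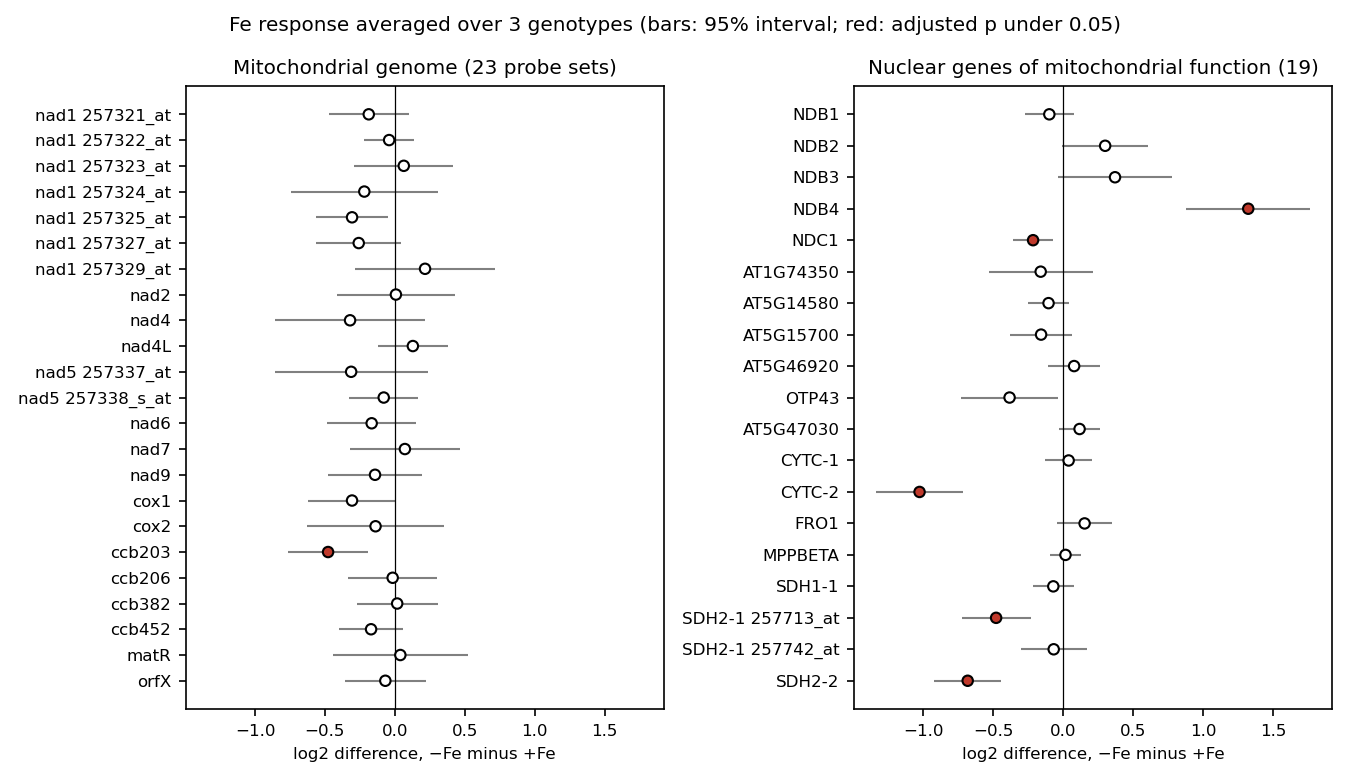
Fe response averaged over the 3 genotypes for the 23 mitochondrial genome probe sets (left) and for 19 probe sets of nuclear genes with mitochondrial functions (right). The horizontal axis is the log2 difference without Fe minus with Fe, circles are estimates, bars are 95% intervals, and red circles had an adjusted p under 0.05: 1 on the left (ccb203, -0.48) and 5 on the right, from CYTC-2 at -1.03 to NDB4 at 1.32.

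For complex I, the averaged log2 differences of the 15 probe sets ran from -0.32 to 0.22, with 10 below 0 and none called. The 2 lowest were nad4 and the probe set 257337_at of nad5, both genes of proton-pumping membrane subunits. For nad4 the signals in Col-0 were 827.3, 324.8 and 379.4 with Fe and 644.9, 236.9 and 367.6 without. CsUBC13-OE gave 973.0, 487.3 and 336.1 with Fe and 573.1, 347.8 and 440.1 without. The ubc13A arrays read 1405.7, 670.0 and 1441.7 with Fe and 726.3, 879.8 and 903.8 without. The ranges with and without Fe overlapped in every genotype. The averaged nad4 difference was -0.32 (SE 0.25, 95% interval -0.86 to 0.22, limma adjusted p = 0.464). It ran from -0.44 to -0.18 when 1 array was left out, and that of cox1, described further on, from -0.39 to -0.20.

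The nad5 probe set 257337_at varied widely within groups. Its Col-0 signals were 99.1, 91.4 and 65.0 with Fe and 78.6, 64.1 and 35.6 without. In CsUBC13-OE they were 141.9, 53.9 and 59.2 with Fe and 108.0, 62.1 and 29.3 without. In ubc13A they were 40.1, 109.0 and 89.5 with Fe and 45.8, 41.2 and 128.1 without. All 3 genotypes overlapped between supplies, and the averaged difference of -0.31 (SE 0.26, adjusted p = 0.485) was not called and ran from -0.45 to -0.19 without 1 array. The other nad5 probe set, 257338_s_at, differed by -0.08 (SE 0.12).

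At the other end, the averaged differences of nad1 257329_at (0.22), nad4L (0.13), nad7 (0.07) and nad1 257323_at (0.06) were the 4 highest of the 23, and none was called. For nad4L, another membrane subunit of complex I, Col-0 gave 110.7, 97.8 and 110.0 with Fe and 104.0, 95.3 and 93.5 without. CsUBC13-OE gave 159.7, 90.0 and 94.7 with Fe and 85.8, 147.0 and 146.9 without. The ubc13A signals were 120.3, 97.7 and 80.3 with Fe and 120.4, 136.1 and 136.0 without. Only in ubc13A did the supplies not overlap for nad4L, by 0.1 of a signal unit, and its averaged difference had an SE of 0.12 and an adjusted p of 0.54.

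The nad7 probe set, for a subunit of the peripheral arm of complex I, was near the lower end of the array signals. Col-0 had 31.0, 7.3 and 21.4 with Fe and 16.9, 19.1 and 15.7 without. CsUBC13-OE had 36.5, 9.8 and 15.6 with Fe and 35.5, 53.4 and 33.6 without. In ubc13A the signals were 36.5, 61.9 and 52.5 with Fe and 15.4, 56.3 and 36.1 without. The genotypes gave differences of both signs for nad7: -0.05 in Col-0, 0.68 in CsUBC13-OE and -0.41 in ubc13A, with an SE of 0.32 each and none called.

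The gene nad1, for the membrane subunit at the junction of both arms of complex I, had 7 probe sets. Their averaged Fe responses ran from -0.31 for 257325_at to 0.22 for 257329_at, with 5 below 0 and none called. The probe set 257325_at was 1 of the 2 members with an unadjusted p under 0.05 (adjusted p = 0.114, SE 0.12). Its signals in ubc13A were 90.7, 100.2 and 91.5 with Fe and 70.4, 67.7 and 65.3 without, with no overlap. In Col-0 they were 97.5, 52.5 and 81.7 with Fe and 73.3, 50.5 and 46.4 without. CsUBC13-OE had 119.2, 89.7 and 57.0 with Fe and 71.5, 80.6 and 68.9 without, so that in both these genotypes the supplies overlapped. The call for 257325_at was gained when either of 2 arrays with Fe, Col-0 replicate 2 or CsUBC13-OE replicate 3, was left out.

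The dimmest of the 23 was nad1 257329_at, with a mean signal of 18.5. Its signals ran from 1.9 to 45.5 over the 18 arrays, and both extremes were ubc13A arrays, the first with Fe and the second without. It lay below the 25th percentile of its own array on 16 of 18 arrays, so its difference of 0.22 (SE 0.23, and 0.09 to 0.35 without 1 array) is one between signals not shown to lie above background. The nad1 transcript is joined by trans-splicing of separately transcribed pieces in plants, and which piece each probe set covers is not given in the annotation.

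**Figure D2:**
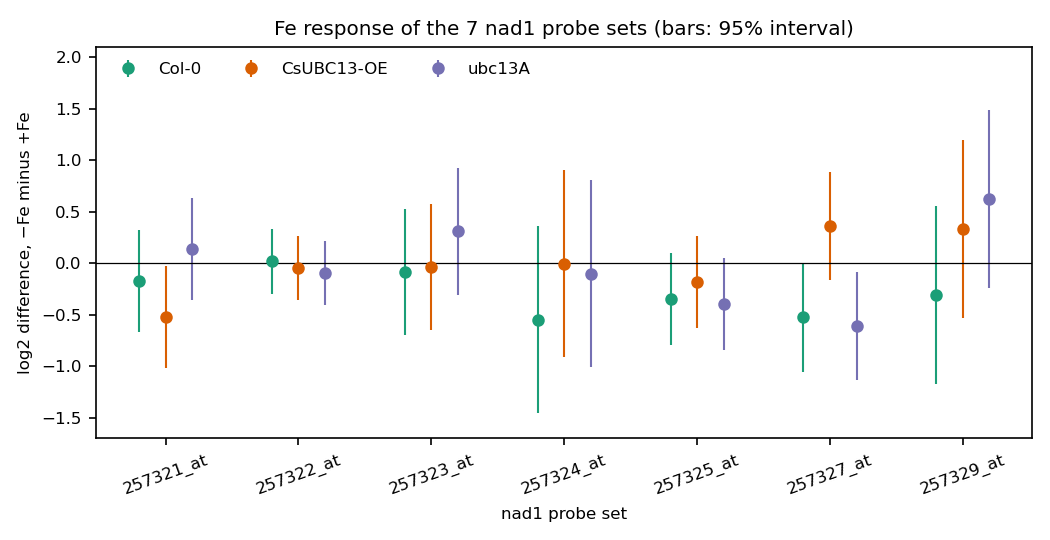
Fe response of each of the 7 nad1 probe sets in each genotype. The vertical axis is the log2 difference without Fe minus with Fe, points are limma estimates and bars 95% intervals; the averaged responses ran from -0.31 to 0.22, none was called, and for 257327_at CsUBC13-OE lay above 0 (0.36) while Col-0 (-0.53) and ubc13A (-0.61) lay below.

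Both complex IV probe sets had estimates below 0 in all 3 genotypes, with none called. The cox1 signals in Col-0 were 520.2, 340.6 and 398.1 with Fe and 421.4, 257.2 and 281.9 without. CsUBC13-OE had 633.9, 360.0 and 274.0 with Fe and 342.3, 290.3 and 311.0 without. The ubc13A arrays had 549.8, 417.5 and 448.2 with Fe and 454.8, 418.0 and 345.9 without. Means were lower without Fe in all 3 genotypes and the signal was lower in each of the 3 Col-0 pairs, while the ranges over all arrays of a genotype overlapped. The averaged cox1 difference was -0.31 (SE 0.15, 95% interval -0.62 to 0.01, limma adjusted p = 0.199). For cox2 the averaged difference was -0.14 (SE 0.23). The maturase gene matR had an averaged difference of 0.04 (SE 0.23) and the translocase gene orfX one of -0.07 (SE 0.14), with neither called.

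Some nuclear genes that serve the same organelle were called with Fe supply. Of 23 listed nuclear loci for subunits of the respiratory chain and ATP synthase, 8 were measured, by 9 probe sets, and 3 probe sets were called lower and none higher in the averaged Fe response, against 8.46% and 5.79% of all probe sets. In the Fe response of ubc13A alone 0 of the 9 were called, against 3.72% of all probe sets. In those of Col-0 and CsUBC13-OE 2 each were called, against 4.26% and 4.33%. Tested as a difference in Fe response between genotypes, 0 of the 9 were called. Of all probe sets, 0.0044% were called so for CsUBC13-OE against Col-0, and 0% for ubc13A against either other line. This count thus does not show that the genotypes responded alike. The 3 called in the averaged response were CYTC-2, for cytochrome c itself, and SDH2-2 and SDH2-1 (257713_at), for the iron-sulfur subunit of succinate dehydrogenase. In Col-0 the CYTC-2 signals fell from 2858.7, 2430.7 and 2194.4 with Fe to 1443.6, 747 and 798.6 without. CsUBC13-OE went from 3316.5, 2192.7 and 2367.4 to 1808.6, 1181.1 and 987.5, and ubc13A had 1499.6, 1555.5 and 1766.4 with Fe and 845.6, 943.4 and 1148.2 without. No genotype overlapped between supplies for CYTC-2, and the averaged difference was -1.03 (SE 0.15, limma adjusted p = 0.000158). The paralogue CYTC-1 differed by 0.04 (SE 0.08) and was not called.

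SDH2-2 had signals of 1758.1, 1502.8 and 1756.5 with Fe and 1201.2, 704.5 and 880.7 without Fe in Col-0. CsUBC13-OE had 1644.9, 1884 and 1252.7 with Fe and 1100.9, 849.7 and 817.4 without, and ubc13A had 1687.6, 1269.4 and 1477.4 with Fe and 1136, 1011.9 and 1163.6 without. The supplies were separate in every genotype, with an averaged difference of -0.68 (SE 0.11, adjusted p = 0.000539). SDH2-1 (257713_at) differed by -0.48 (SE 0.12, adjusted p = 0.0111). A second SDH2-1 probe set, 257742_at, had a mean signal of only 3.57 and was not called. The flavoprotein subunit gene SDH1-1 differed by -0.07 (SE 0.07).

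Among nuclear genes of alternative electron transport, 5 of 13 loci were measured. No alternative oxidase (AOX) gene was among them. NDB4, for an external NAD(P)H dehydrogenase that feeds electrons into the chain without pumping protons, rose without Fe. Its signals went from 72.7, 75.1 and 90.7 to 308.2, 181.8 and 248.6 in Col-0 and from 93.6, 72.6 and 67.2 to 310.7, 163.6 and 270.3 in CsUBC13-OE. In ubc13A they were 8.6, 78.1 and 44.7 with Fe and 84.4, 94.1 and 103.9 without. The averaged difference was 1.32 (SE 0.21, limma adjusted p = 0.00038), and the groups did not overlap in any genotype. Of all probe sets, 9.1%, 8.19% and 9.04% were higher without overlap in Col-0, CsUBC13-OE and ubc13A. In ubc13A alone the NDB4 difference, 1.08, was not called. NDC1, a further alternative dehydrogenase, was lower by a log2 difference of -0.21 (SE 0.07, adjusted p = 0.0426), a call lost under other scalings (adjusted p = 0.114 with quantile normalization and 0.168 with arrays centred on their median) and kept in 4 of 18 fits that left out 1 array. NDB1, NDB2 and NDB3 were not called.

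Of 10 nuclear loci for mitochondrial RNA synthesis and processing, 5 were measured. None of the 5 was called in the averaged Fe response, where 14.2% of all probe sets were called. Their differences ran from -0.38 for OTP43, a splicing factor of nad1, to 0.08 for AT5G46920, a nuclear maturase. The 53 chloroplast genome probe sets, the other organelle genome on the array, gave 8 called lower, none higher and a median of -0.21, with 52 of 53 below 0, against 8.46% of all probe sets called lower and 59.6% below 0. Tissue markers of both kinds moved in the same comparison. Of the green tissue markers, 3 of the 4 measured were called lower, with a median of -0.48. Of the root markers, 2 of the 3 measured were called lower, with a median of -0.22. Their part in the organelle values was not tested.

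None of the 23 mitochondrial genome probe sets was called between the overexpressor and Col-0. In CsUBC13-OE against Col-0 with Fe, 0 of 23 were called by limma and 0 had an unadjusted p under 0.05, with 0.0132% of all probe sets called and 2.78% at the unadjusted threshold. Without Fe there were 0 calls and 3 members at an unadjusted p under 0.05, against 0.0132% and 3.48% of all. Averaged over both supplies, a comparison added after the data were seen, 0 were called and 0 had an unadjusted p under 0.05, against 0.0176% and 3.61% of all. The median over both supplies was 0.04, against 0.01 over all probe sets, and the 23 values ran from -0.45 for nad2 to 0.39 for nad7.

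The ubc13A mutant had a higher signal of ccb382 (CcmFN1) at both supplies. In Col-0 the ccb382 signals were 816.5, 594.1 and 543.9 with Fe and 865.1, 474.3 and 577.3 without. CsUBC13-OE gave 780.2, 690.4 and 474.4 with Fe and 847.0, 591.5 and 616.2 without. In ubc13A they were 1381.4, 1103.3 and 1272.2 with Fe and 1346.8, 1378.2 and 1068.9 without. All 6 ubc13A arrays lay above all 12 others, which was so for 0.233% of all probe sets and for no other member.

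Tested at each supply alone, the ccb382 difference of ubc13A from Col-0 did not pass. With Fe it was 0.94 (SE 0.23, limma adjusted p = 0.202), and without Fe 1.0 (SE 0.23, adjusted p = 0.12). In those comparisons 0 of 23 members were called, against 0.0132% of all probe sets with Fe and 0.0484% without, and 4 members had an unadjusted p under 0.05 at each supply, against 9.84% and 11.1% of all. Averaged over both supplies, added after the data were seen, the difference was 0.97 (SE 0.17, 95% interval 0.62 to 1.33, adjusted p = 0.0173), a 1.96-fold higher value on the log2(signal + 16) scale. It was the single member called of 23, where 0.725% of all probe sets were called. The adjusted p was 0.0504 without Col-0 replicate 2 grown with Fe. Against CsUBC13-OE over both supplies, ccb382 was again the single call, at 0.92 (adjusted p = 0.021), with 0.761% of all probe sets called, and that call was lost without any of 4 single arrays. The comparisons of ubc13A with Col-0 and with CsUBC13-OE share the ubc13A arrays.

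**Figure D3:**
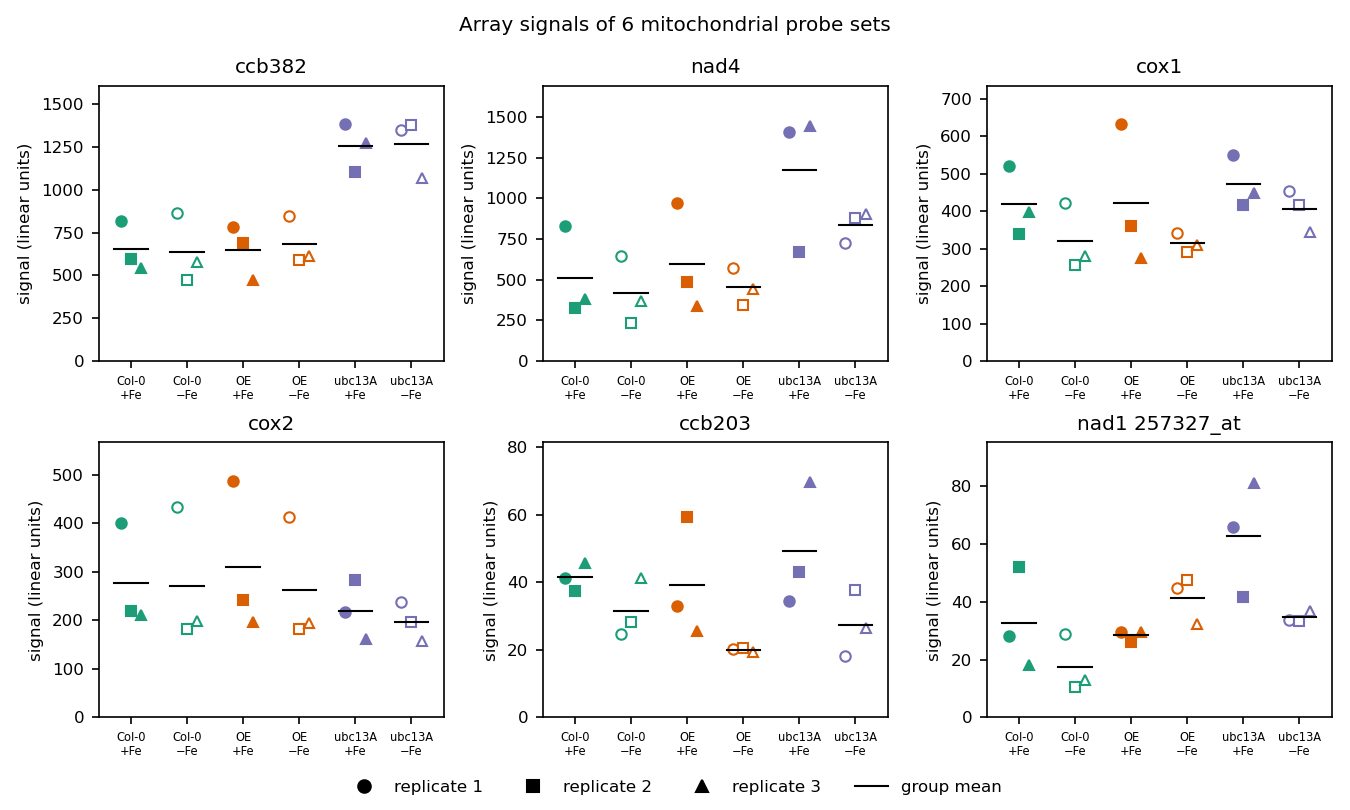
Signals of 6 mitochondrial probe sets on all 18 arrays, in linear units from 0. Filled symbols are arrays with Fe, open symbols without Fe, shapes are replicate numbers and lines group means; OE stands for CsUBC13-OE. For ccb382 the 6 ubc13A arrays (1068.9 to 1381.4) lie above all others (474.3 to 865.1), for nad4 they overlap with the others, and replicate 1 is the highest array of cox1, cox2, ccb382 and nad4 in each Col-0 and CsUBC13-OE group.

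The nad4 probe set, with the signals given above, had the largest estimate of the 23 in ubc13A against Col-0, but a wide error. Its difference was 1.22 with Fe and 1.08 without, and 1.15 over both supplies (SE 0.31, 95% interval 0.49 to 1.81, limma adjusted p = 0.0957). The lowest ubc13A arrays, at 670.0 and 726.3, lay below the highest Col-0 array at 827.3. With the dimmest 40% of probe sets left out, which reduces the number tested, the adjusted p of nad4 was 0.0355.

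The rest of the members ranged more narrowly. Over both supplies, 18 of the 23 were above 0 in ubc13A against Col-0, a direction shared by 58.8% of all probe sets, with a median of 0.19 against 0.04 over all. Members with an unadjusted p under 0.05 numbered 6, against 15% of all probe sets: ccb382, nad4, nad7 (0.74), nad1 257327_at (0.68) and orfX (0.37) with higher estimates, and nad2 (-0.56) with a lower one. Only ccb382 was called. The 7 nad1 probe sets ran from -0.17 to 0.68, and those of complex IV from -0.31 for cox2 to 0.26 for cox1. The other 3 cytochrome c maturation genes had differences between 0.01 for ccb203 and 0.26 for ccb452. Values for orfX were 174.5, 122.6 and 108.0 with Fe and 149.6, 132.8 and 150.2 without Fe in ubc13A, and 118.4, 96.7 and 97.9 with Fe and 143.1, 99.0 and 76.9 without Fe in Col-0.

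**Figure D4:**
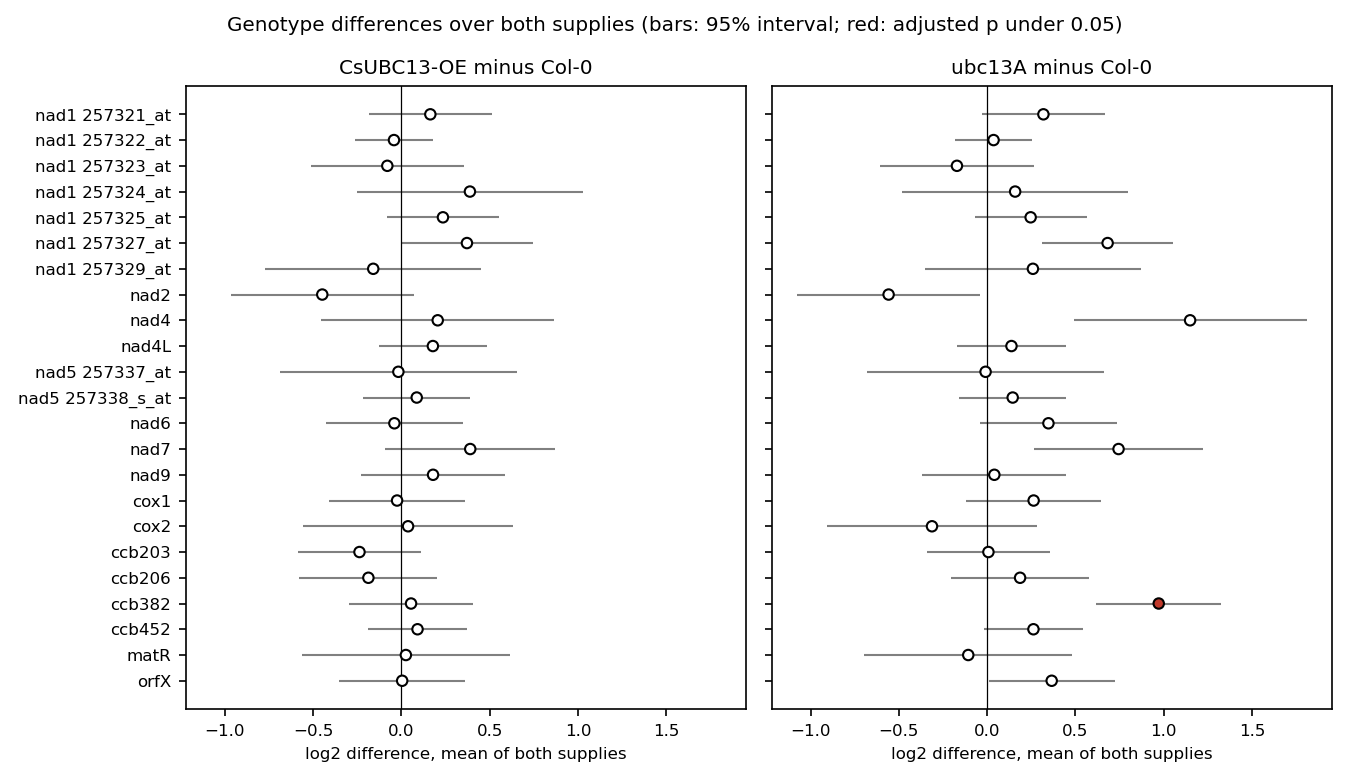
Genotype differences of the 23 mitochondrial genome probe sets over both supplies, CsUBC13-OE minus Col-0 (left) and ubc13A minus Col-0 (right). The horizontal axis is the log2 difference, circles are estimates, bars are 95% intervals and the red circle had an adjusted p under 0.05: ccb382 at 0.97. On the left the values run from -0.45 to 0.39 with none called.

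Other quantities also differed between the ubc13A arrays and the rest. Of the 53 chloroplast genome probe sets, 12 were called higher and 2 lower in ubc13A against Col-0 over both supplies, against 0.356% and 0.369% of all probe sets, with a median of 0.53. Their median deviation per array overlapped between the lines, at 0.25 to 0.56 in ubc13A and up to 0.30 in Col-0. The 25S rRNA control, given above, was lower on all 6 ubc13A arrays, without overlap. A GAPDH control ratio of 3′ to 5′ probe sets was 1.18 to 1.54 in ubc13A with Fe. It was 0.79 to 1.12 in ubc13A without Fe and 0.83 to 1.11 in the other groups, so here only ubc13A with Fe stood apart. A second GAPDH ratio overlapped, at 0.997 to 1.11 in ubc13A with Fe and up to 1.06 in CsUBC13-OE without Fe. The actin ratio was 2.01 to 2.73 in ubc13A with Fe and up to 2.31 in CsUBC13-OE with Fe. For ubiquitin it was 1.06 to 1.58 in ubc13A with Fe and up to 1.13 in Col-0 without Fe. The part of these in the ccb382 difference was not tested, and the genotype and any difference in handling of the ubc13A samples cannot be told apart. None of the 19 nuclear probe sets of mitochondrial function was called in this comparison, against 0.725% of all probe sets. NDB4 came nearest, at -1.05 (SE 0.25, adjusted p = 0.0725).

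Whether genotype altered the Fe response was tested as a difference of differences. For CsUBC13-OE against Col-0, 0 of 23 members were called, with 2 at an unadjusted p under 0.05, against 0.0044% and 2.66% of all probe sets. For ubc13A against Col-0 there were 0 calls and 0 at an unadjusted p under 0.05, against 0% and 5.51% of all. The median SE of such a difference was 0.36 for the members, so only large differences could have been detected. The largest estimate between CsUBC13-OE and Col-0 was that of ccb206 (CcmB), at -0.92, and between ubc13A and Col-0 that of nad2, at -1.03. The nad2 signals in ubc13A were 33.0, 12.6 and 31.0 with Fe and 9.8, 1.6 and 8.3 without, and in Col-0 9.7, 38.3 and 35.7 with Fe and 24.3, 26.2 and 44.5 without. None of these nad2 values exceeded 44.5, so all lay under the highest 25th percentile of an array.

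Within the Col-0 and CsUBC13-OE groups, the same replicate number was often highest. Replicate 1 was the highest of 3 in all 4 of these groups for 9 of the 23 mitochondrial probe sets (39.1%), for 20 of the 53 chloroplast ones (37.7%) and for 5.5% of all. The 9 were nad4, nad9, nad1 257321_at, nad5 257337_at, cox1, cox2, ccb382, ccb452 and orfX. The cox2 probe set was one of these. Its Col-0 signals were 400.3, 218.6 and 211.0 with Fe and 433.0, 182.1 and 198.8 without, and those of CsUBC13-OE 487.4, 241.9 and 197.5 with Fe and 412.1, 182.6 and 194.1 without. In ubc13A the cox2 signals were 216.2, 283.2 and 161.3 with Fe and 238.1, 195.6 and 158.1 without, and replicate 1 was highest in the group without Fe alone. No member had replicate 2, and none replicate 3, as the highest in all 4 groups. What the replicate numbers share is not stated in the labels. A fit with the replicate number as a block gave the same number of members called in each comparison.

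**Figure D5:**
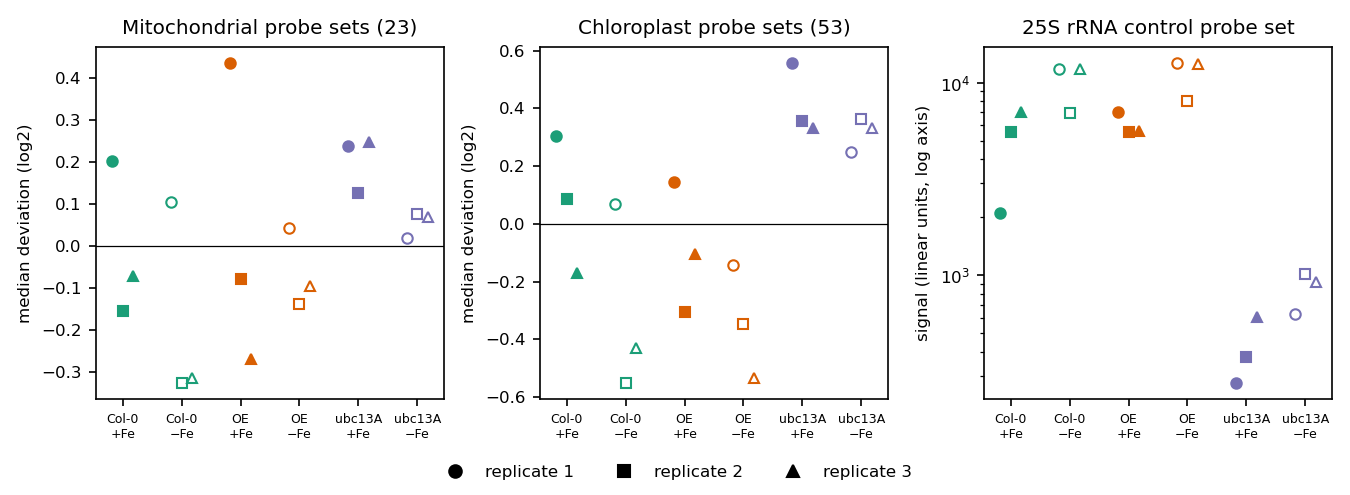
Median deviation of the 23 mitochondrial (left) and 53 chloroplast (middle) probe sets from their means over all 18 arrays, in log2 units, and the 25S rRNA control signal on a log axis (right), by group. Filled symbols are with Fe, open without, shapes are replicate numbers and OE stands for CsUBC13-OE; the ubc13A arrays lie at 0.02 to 0.25 on the left and at 277.7 to 1019.4 on the right.

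The gene matR was the sole maturase on the list. Its signals in Col-0 were 114.5, 51.0 and 87.6 with Fe and 93.9, 83.7 and 52.0 without. In CsUBC13-OE they were 156.2, 100.6 and 23.8 with Fe and 88.0, 88.0 and 70.7 without, and in ubc13A 71.7, 77.1 and 54.0 with Fe and 77.3, 68.0 and 80.4 without. The ranges with and without Fe overlapped in each genotype, and no matR comparison was called. The matR reading frame lies inside an intron of nad1, and its averaged Fe response of 0.04 stood beside nad1 values from -0.31 to 0.22.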

How the data were processed

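Biotin-labelled RNA was made by in vitro transcription from root total RNA extracted with a Qiagen RNeasy kit, per the labels' protocols. The authors deposited a linear intensity for each probe set on each array, and the array medians lay between 189.7 and 210.95. The sources used here do not name the summarising software, and detection calls were not used. Of 22810 probe sets, 64 controls were set aside and 22746 tested. Genes were named from the platform annotation, in which 13513 probe sets name 1 gene, 503 several and 8730 none. The platform's Entrez numbers matched none of the 23 members, so RefSeq (TAIR10.1) was matched by symbol or synonym.

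The 6 group means of log2(signal + 16) were fitted over 18 arrays with limma 3.58.1 in R 4.3.3 (12 residual degrees of freedom). Fold changes are on that scale, which understates changes of dim probe sets. Each comparison was adjusted over 22746 probe sets by the Benjamini-Hochberg method. The 10 planned comparisons were the Fe response per genotype and averaged, each genotype against Col-0 at each supply, and the differences in Fe response; 4 were added after the data were seen. The fit was tested on simulated data. The members and lists were chosen with earlier results of these data known. Precision is limited by the number of arrays. The p-values rest on the spread among replicates that the labels call biological.

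Genes named with values were up to 6 called members per comparison, the 4 highest and 4 lowest averaged Fe responses, the brightest member of each class and the dimmest of all; nuclear genes were those called in their list. The probe sets of nad1, nad2, cox2, ccb206, ccb452, CYTC-1, SDH1-1, OTP43 and AT5G46920 that fall outside the rule were chosen after their values were seen. Pairing by replicate number was checked by correlating deviations from group means. All 3 correlations exceeded 0.1 for Col-0 with against without Fe (lowest 0.112) and, without Fe, for CsUBC13-OE against Col-0 (0.107), and not between the other groups compared, so the pairing comes from the data. Alternatives were quantile normalization, centring on the median, pseudocounts of 1 and 64, leaving out the dimmest 40%, trended and robust variances, only the arrays compared, a replicate block and leaving out each array. Figures used Python 3.11.15 and matplotlib 3.10.9.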

Additional observations from a re-analysis of the deposited data

Results flagged for a closer look

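One probe set, nad1 257327_at, had every array without Fe above every array with Fe in CsUBC13-OE and the reverse in ubc13A. Of all probe sets, 8.19% were higher in that way in CsUBC13-OE and 12.8% lower in ubc13A. In CsUBC13-OE its signals were 29.7, 26.0 and 29.7 with Fe and 44.8, 47.4 and 32.2 without, a log2 difference of 0.36 (limma adjusted p = 0.562). In ubc13A they were 65.9, 41.8 and 81.1 with Fe and 33.6, 33.3 and 36.9 without, a difference of -0.61 (limma adjusted p = 0.217). The difference between the 2 responses was 0.97 (SE 0.35) and was not called by limma (adjusted p = 0.919, unadjusted p = 0.0139). Larger estimates of that difference were those of nad2 (1.57, limma adjusted p = 0.873, unadjusted p = 0.00571) and nad7 (1.098, limma adjusted p = 0.956, unadjusted p = 0.0278), neither called. The probe set was below the 25th percentile of its own array on 11 of 18 arrays. Groups of 3 arrays were not examined for single outlying arrays.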

How the results depend on the processing

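The count of members called was within 1.5 times the reported one in all comparisons and alternatives except as follows. In the averaged Fe response it went from 1 to 0 with the dimmest 40% of probe sets left out (7 of the 23 were kept, and ccb203 was not among them) and to 0 with trended, robust variances, and leaving out single arrays gave 0 to 2. In ubc13A against Col-0 without Fe it went from 0 to 1 with the dimmest left out (ccb382, adjusted p = 0.0377) and to 1 with trended, robust variances (adjusted p = 0.0332). In ubc13A against Col-0 over both supplies it was 2 with the dimmest left out, and leaving out single arrays gave 0 to 1, with ccb382 called in 11 of 12 such fits. Against CsUBC13-OE over both supplies leaving out single arrays also gave 0 to 1, with ccb382 called in 8 of 12. The sign of the averaged Fe response turned for nad7 (-0.0226 to 0.179 over fits without 1 array, below 0 without replicate 2 of Col-0 with Fe, of CsUBC13-OE with Fe or of ubc13A without Fe) and for nad1 257323_at (-0.0604 to 0.185, below 0 without CsUBC13-OE replicate 2 with Fe), and neither was called. The cause was not tested. With the replicate number as a block, the averaged Fe response (ccb203) and ubc13A against Col-0 over both supplies (ccb382) gave 1 call each as before. So did ubc13A against CsUBC13-OE over both supplies, and the other comparisons gave 0. Where the dimmest probe sets were left out fewer were tested. Median centring and quantile normalization moved the median of all probe sets by under 0.1 log2. Signals under about the 25th percentile of an array, which hold 5 of the members by their means, have no stated limit of detection.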
